A study of Mus musculus with 12 samples.

Results

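The messages of 34 genes of glycolysis, glycogen handling and lactate transport were followed across 4 groups of mouse forebrain libraries, to set the glial and neuronal forms of each step side by side. They were chosen by symbol for their roles, with earlier results of these data known, and found in the count tables by gene identifier. All 34 had a row among the 41388 gene identifiers, and 33 of them passed the filter on low counts, which kept 13364 genes. The exception was Slc16a3, the monocarboxylate transporter MCT4, with 20 counts over all 12 libraries. All 12 were made from cortex with hippocampus of C57/Bl6 mice aged 21 postnatal days, and every group carries Aldh1l1-driven eGFP-RPL10a, a ribosomal protein with a green fluorescent tag expressed from an astrocyte promoter. All groups share treatment with cycloheximide (1 ug/mL), which holds ribosomes on their messages, and TTX (1 mM), a sodium channel blocker. The groups of 3 libraries are cortex input (lysate before purification), cortex TRAP (messages pulled down with the tagged ribosomes, by translating ribosome affinity purification), synaptoneurosome input (a sucrose gradient layer with pinched-off synapses and the astrocyte processes around them) and PAP TRAP (the pull-down from that layer, for peripheral astrocyte processes). The labels do not say whether replicates were separate animals or pools, so p-values measure the spread between these libraries, which may be technical.

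Glycolysis splits glucose into pyruvate, and lactate dehydrogenase converts pyruvate and lactate into each other. Many of its steps, and the transport of glucose and lactate, are run by related enzymes or transporters from different genes. Some of these are typical of neurons (the transporters Slc2a3 and Slc16a7 and the enzyme Eno2) and some of astrocytes (Aldoc). In the brain, glycogen is stored mostly in astrocytes, where glycogen phosphorylase releases its glucose units, and monocarboxylate transporters carry lactate across membranes.

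Genes of the nucleus held 1423296 to 2476076 counts in the synaptoneurosome inputs and 4864787 to 7777763 in the other 9 libraries, so low genes are measured least well in the synaptoneurosome inputs. Messages of the mitochondrial chromosome took between 1.03% of gene counts (a cortex TRAP library) and 91.9% (a synaptoneurosome input). Levels below are normalized CPM, counts scaled to a common library size. The labels call the cell type astrocytes in all groups, although the inputs are lysates of mixed cells. The 10 astrocyte markers together held 0.746 to 0.845% of nuclear counts in cortex input, 5.83 to 9.24% in cortex TRAP, 3.94 to 4.78% in synaptoneurosome input and 4.70 to 9.19% in PAP TRAP, and all 10 were counted in every library. The 10 neuron markers held 2.04 to 2.34%, 0.249 to 0.318%, 1.69 to 2.09% and 1.90 to 2.95% in the same order, and all 10 were counted in every library too. Single genes hold much of both sums, a split looked at after the values were seen. Slc1a2, the main glutamate transporter of astrocytes, made up 80.4 to 84.1% of the astrocyte sum in cortex input, 65.0 to 74.2% in cortex TRAP, 89.6 to 91.3% in synaptoneurosome input and 87.1 to 87.7% in PAP TRAP. The other 9 astrocyte markers held 0.131 to 0.146%, 2.04 to 2.58%, 0.343 to 0.497% and 0.578 to 1.18%, so that PAP TRAP lay above its input and below cortex TRAP. Of the 10, 8 were lower in PAP TRAP than in cortex TRAP and 0 higher (median log2 change -1.31). Camk2a, a kinase gene of excitatory neurons, made up 31.7 to 42.8% of the neuron sum in synaptoneurosome input and 78.6 to 81.0% in PAP TRAP. The other 9 neuron markers held 1.71 to 1.89% in cortex input, 0.187 to 0.295% in cortex TRAP, 1.02 to 1.43% in synaptoneurosome input and 0.381 to 0.561% in PAP TRAP, which thus lay below its input and above cortex TRAP. Of the 10, Camk2a was higher and Snap25 and Syt1 were lower in PAP TRAP than in its input (median -0.29), and 9 were higher and 0 lower in PAP TRAP than in cortex TRAP (median 2.68). The 8 oligodendrocyte markers held 0.410 to 0.444% in cortex input, 0.0601 to 0.0896% in cortex TRAP, 0.546 to 0.744% in synaptoneurosome input and 0.786 to 1.05% in PAP TRAP. The 9 microglia markers held 0.0127 to 0.01625%, 0.00220 to 0.00361%, 0.0592 to 0.128% and 0.0247 to 0.0368% in the same order. PAP TRAP thus lay above its input for the oligodendrocyte sum and below it for the microglia sum. Gene by gene, 1 oligodendrocyte marker was higher and 1 lower there (median log2 change 0.26), and 0 microglia markers were higher and 2 lower (median -1.81). The 10 endothelial markers stayed at or below 0.00313% in every library, with Cldn5 at 0 counts in all of cortex input, synaptoneurosome input and PAP TRAP. In these bulk libraries, fewer cells of a type and less RNA per cell cannot be told apart.

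Counts of several of these genes depend on how reads from near-identical copies were handled. Each 50-base window of a gene's longest coding sequence was searched for in the transcripts of all other genes (GENCODE M21, GRCm38, both strands). Of the 34 genes, 19 shared no window, and 6 shared at least 50% of their windows. For Gapdh, glyceraldehyde phosphate dehydrogenase, 94.2% of windows lay in 221 other genes, 212 of them pseudogenes, and for Pgk1 and Pgam1 the share was 100% each. A window of Gapdh held by 84 other genes is printed beside the window at the same coding positions (493 to 542) of Aldoc, which no other gene holds, to show what a read from each can identify (lower case throughout, no base marked).
Gapdh: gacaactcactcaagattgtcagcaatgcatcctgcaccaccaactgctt
Aldoc: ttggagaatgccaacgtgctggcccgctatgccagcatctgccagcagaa
The 12 libraries together held 1226 counts of Gapdh and 236342 of Aldoc. Rows for reads with no unique alignment held 16.1% to 32.5% of all counts. Counts of Gapdh, Pgk1, Pgam1, Eno1 (83.3% of windows shared), Pfkfb2 (65.8%, all with 1 other gene) and Pkm (50.5%) are therefore uncertain, and to a lesser degree those of Gpi1 (40.9%), Ldhb (35.6%), Ldha (28.4%), Aldoa (16.8%) and Tpi1 (13.7%). The pseudogenes that share windows with Gapdh held 8686 counts, more than Gapdh itself. Those of Pgk1, Pgam1 and Eno1 held 12, 14 and 20, against 882, 205 and 8871 for the genes. How many reads of these genes fell among those with no unique alignment was not tested.

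**Figure D1:**
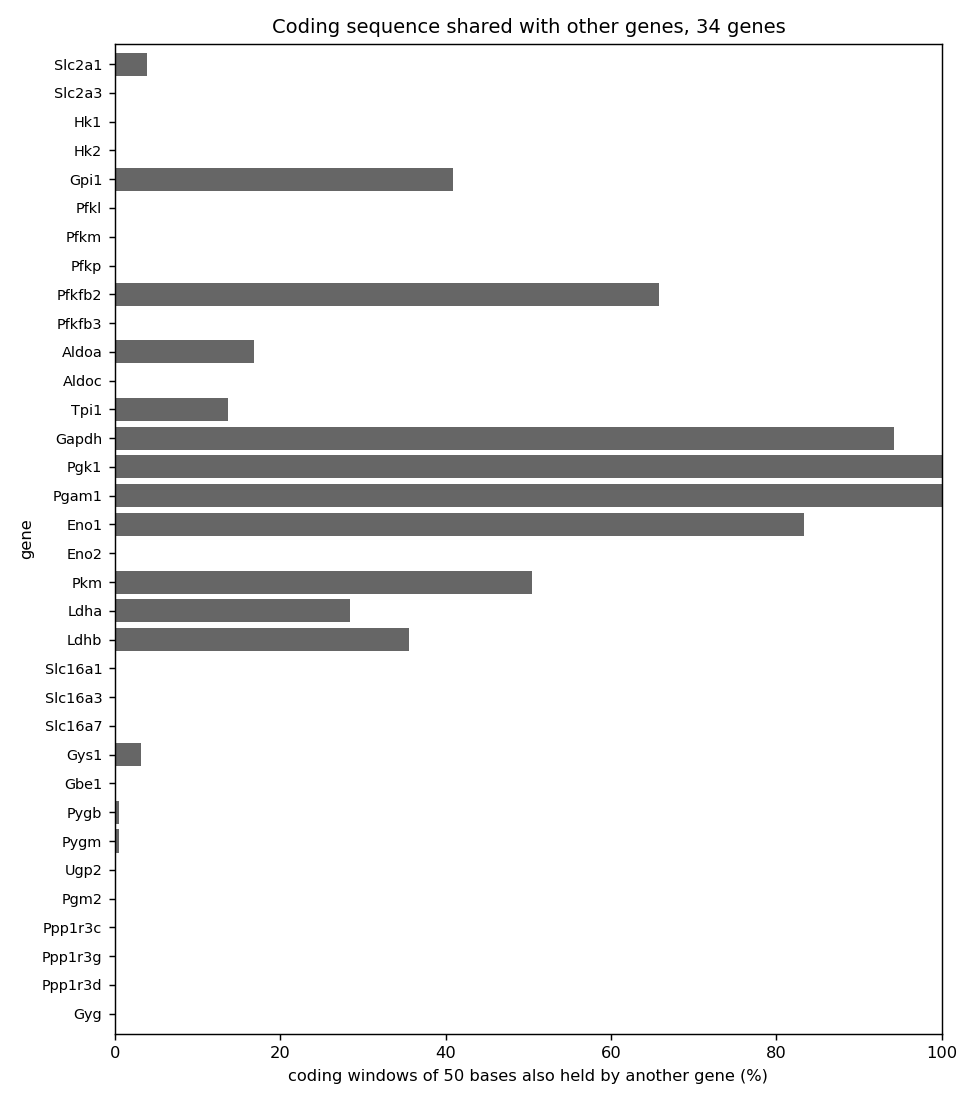
Horizontal bars give, for each of the 34 genes, the share of its 50-base coding windows (%) that the transcript of another gene also holds. Pgk1 and Pgam1 reach 100%, Gapdh 94.2% and Eno1 83.3%, while Aldoc, Eno2, Slc2a3 and Slc16a7 stand at 0.

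In the astrocyte pull-down from whole tissue, Aldoc, both glycogen phosphorylases and several other glycogen genes were higher than in its input, and Slc2a3, Hk1, Eno2 and Slc16a7 were lower. The 7 genes from triose phosphate isomerase to pyruvate kinase had 1 rise and 1 drop there, with a median log2 change of 0.01, and held 0.0556 to 0.0614% of nuclear counts in cortex TRAP against 0.0801 to 0.0919% in cortex input. In cortex TRAP against cortex input, 15 of the 33 tested rose (among all genes tested 15.9% did) and 4 fell (19.5%), and the median log2 change was 1.28 against 0.05 over all genes. In PAP TRAP against synaptoneurosome input only Aldoc, Pygb and Pygm rose, 3 of 33 against 3.0% of all genes, and 0 fell against 1.53% (9 had an unadjusted p under 0.05, and DESeq2 called 5 higher and 0 lower). The median there was 0.31 against 0.06. PAP TRAP against cortex TRAP had 4 higher (19.3% of all genes) and 11 lower (14.6%), with a median of -0.75 against -0.28. Synaptoneurosome input against cortex input had 5 higher (7.26%) and 2 lower (2.07%), with a median of 0.13 against -0.14. The enrichment over input in the fraction exceeded that in whole tissue for 4 genes (12.9% of all genes) and fell short of it for 10 (7.32%). The share of these genes called was above that of all genes for the rises in both pull-downs and in synaptoneurosome input, for the lower levels in PAP TRAP and synaptoneurosome input and for the smaller enrichments in the fraction. It was below that of all genes for the drops in cortex TRAP, for the higher levels in PAP TRAP than in cortex TRAP and, slightly, for the greater enrichments. Since the genes were chosen with earlier results of these data known, these shares are not independent of the choice. In the first 4 comparisons, the 2 groups of every called gene did not overlap. This adds no support to the calls, since the share of all genes without overlap was not counted. Some genes that were not called had no overlap either, such as Gpi1 in cortex TRAP over cortex input. Tested against a minimum fold of 1.5, 10 calls were lost: Hk1, Ldha and Slc16a1 in cortex TRAP over its input, Pygb and Pygm in PAP TRAP over its input, Pygb in PAP TRAP against cortex TRAP, and Slc2a1, Pfkp, Eno2 and Pygm in synaptoneurosome input. Comparisons that share a group are not independent of each other.

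**Figure D2:**
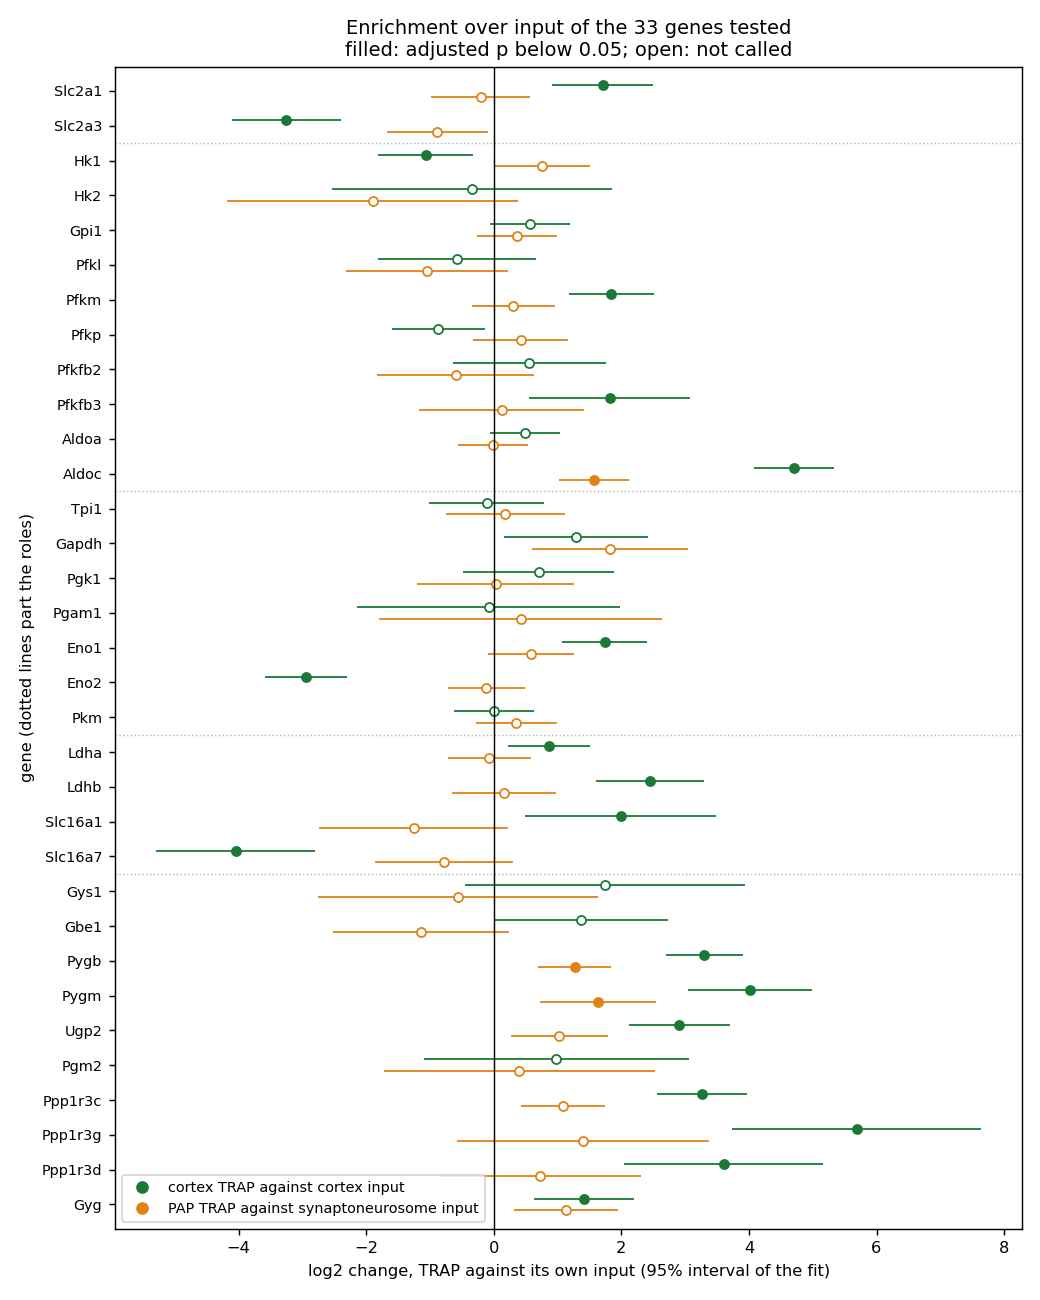
Points give the fitted log2 change of each of the 33 genes tested for cortex TRAP against cortex input (green) and PAP TRAP against synaptoneurosome input (orange), with 95% intervals (n = 3 per group), and filled points have an adjusted p below 0.05. In whole tissue 15 genes stand right of 0 and 4 left of it as filled points, while in the fraction only Aldoc, Pygb and Pygm are filled.

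Together the 34 genes held 0.312 to 0.348% of nuclear counts in cortex input, 1.13 to 1.62% in cortex TRAP, 0.301 to 0.328% in synaptoneurosome input and 0.360 to 0.587% in PAP TRAP. Most of the gain in the pull-downs was Aldoc. Without Aldoc the remaining 33 genes held 0.273 to 0.303%, 0.390 to 0.566%, 0.206 to 0.231% and 0.197 to 0.238%, so that PAP TRAP overlapped its own input. Aldoc made up 12.2 to 13.1% of the counts of these genes in cortex input, 64.2 to 69.9% in cortex TRAP, 28.4 to 31.8% in synaptoneurosome input and 45.4 to 59.4% in PAP TRAP.

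Glucose enters cells through facilitative transporters. Slc2a1 (ENSMUSG00000028645, chromosome 4, 119108711 to 119137983, plus strand) encodes GLUT1, the transporter of brain endothelium and astrocytes, and Slc2a3 (ENSMUSG00000003153, chromosome 6, 122727809 to 122801640, minus strand) encodes GLUT3, the main neuronal transporter. Slc2a1 stood at 14.5, 10.7 and 10.3 normalized CPM in the 3 cortex inputs, 34.8, 29.3 and 51.5 in cortex TRAP, 27.7, 17.9 and 39.2 in the synaptoneurosome inputs and 21.8, 19.3 and 32.5 in PAP TRAP. All other libraries lay above the cortex inputs, and PAP TRAP overlapped its own input. Slc2a1 rose by 1.71 ± 0.38 (log2 ± SE) in cortex TRAP over cortex input (adjusted p = 0.00137) and by 1.26 ± 0.38 in synaptoneurosome input over cortex input (adjusted p = 0.0403). Its change of -0.21 ± 0.37 in PAP TRAP over synaptoneurosome input was not called (95% interval -0.98 to 0.57). The 10 endothelial markers together held 0.000796 to 0.00154% of nuclear counts in cortex input, 0.000185 to 0.000246% in cortex TRAP, 0.00168 to 0.00178% in synaptoneurosome input and 0.00181 to 0.00313% in PAP TRAP. These shares rest on few counts, and only 4 of the 10 markers passed the filter. Of those 4, 1 was called lower in cortex TRAP than in cortex input, and 0 were called in synaptoneurosome input against cortex input. In PAP TRAP against cortex TRAP, 3 of the 4 were called higher and 0 lower (median log2 change 4.53). No direction is read from them, and their part in these results was not tested.

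Slc2a3 ran the other way. It stood at 66.1, 69.5 and 85 normalized CPM in cortex input, 3.29, 7.55 and 12.3 in cortex TRAP, 108, 127 and 185 in synaptoneurosome input and 83.9, 47.7 and 96.0 in PAP TRAP. The 3 cortex TRAP libraries were far below all 9 others. Slc2a3 fell by 3.25 ± 0.41 on the log2 scale in cortex TRAP (adjusted p = 4.01e-06; -3.93 without cortex TRAP replicate 3) and was higher by 3.30 ± 0.41 in PAP TRAP than in cortex TRAP (adjusted p = 4.33e-06; 3.96 without that library). Its change of -0.89 ± 0.38 in PAP TRAP over synaptoneurosome input was not called (adjusted p = 0.188). Within a library and per length, the ratio of Slc2a1 to Slc2a3 was 0.452, 0.319 and 0.250 in cortex input, 21.7, 7.98 and 8.63 in cortex TRAP, 0.529, 0.294 and 0.439 in synaptoneurosome input and 0.537, 0.839 and 0.70 in PAP TRAP. Slc2a1 thus outweighed Slc2a3 in cortex TRAP only, among these 12 libraries (exact two-sided permutation p = 0.1 against cortex input and against PAP TRAP, the smallest that 3 against 3 libraries allow, and 0.222 adjusted over the 40 ratio tests). The summed share of neuron markers, with or without Camk2a, differs between cortex TRAP and PAP TRAP in the same direction as Slc2a3, and its part in this result was not tested. The call of Slc2a1 in synaptoneurosome input was lost without any of cortex input 1, 2 or 3, synaptoneurosome input 1 or 3 or PAP TRAP 1 (adjusted p 0.0516 to 0.165), and without a filter on low counts (adjusted p = 0.0574).

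**Figure D3:**
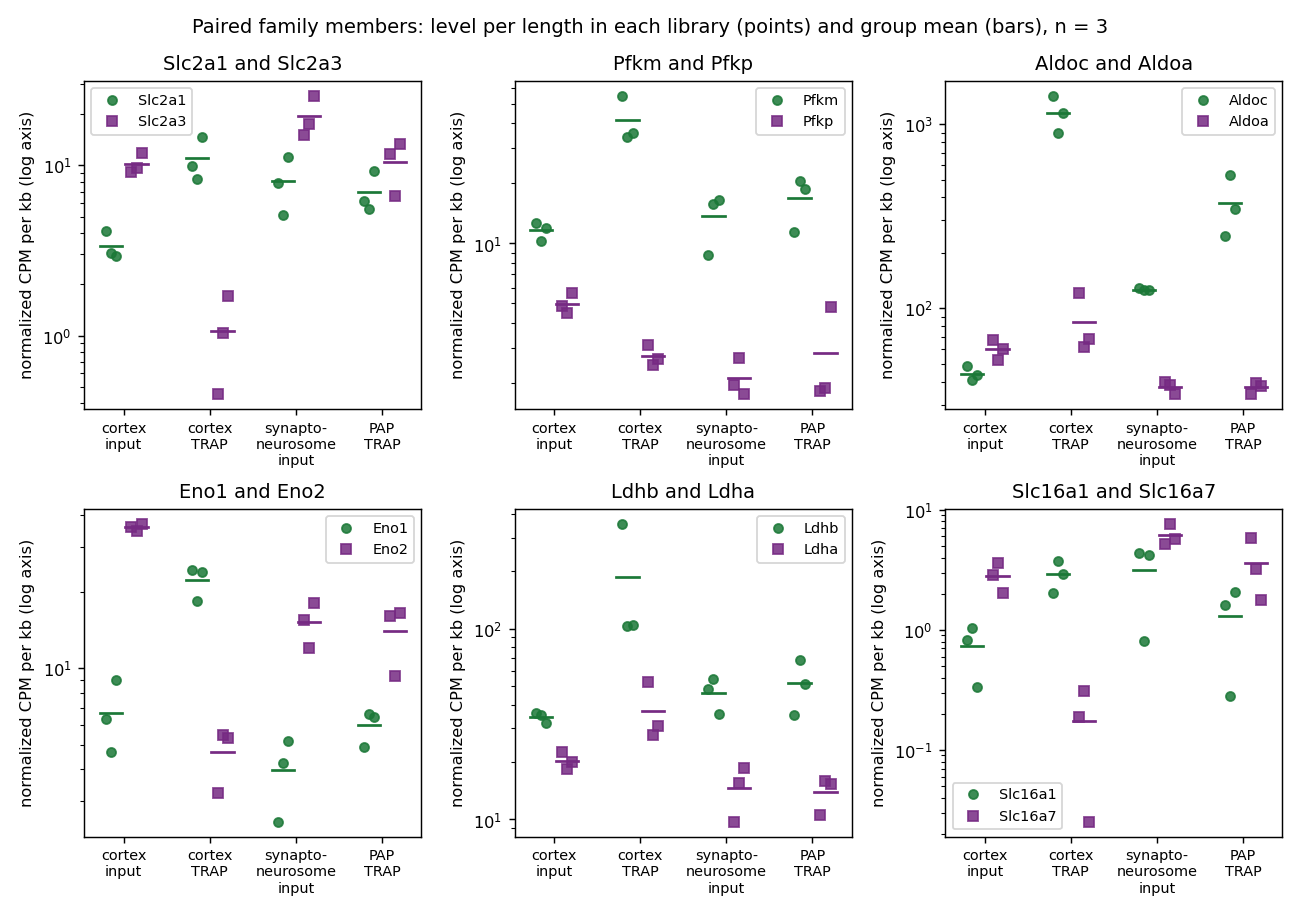
Each panel plots the level per length (normalized CPM per kb of exons, log axis) of a pair of related genes in each of the 12 libraries, with the mean of 3 libraries as a bar. In cortex TRAP, Slc2a1, Eno1 and Slc16a1 stand above Slc2a3, Eno2 and Slc16a7, and in the other 3 groups the means of these pairs stand in the opposite order.

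The upper steps run from hexokinase, which traps glucose in the cell, to aldolase, which cleaves the sugar bisphosphate. Hk1, the main hexokinase of brain, stood at 32.1, 35.8 and 29.8 normalized CPM in cortex input, 25.9, 9.79 and 10.8 in cortex TRAP, 31.3, 28.7 and 34.2 in synaptoneurosome input and 42.5, 55.9 and 61.1 in PAP TRAP. PAP TRAP was the highest group and cortex TRAP the lowest, where replicate 1 lay apart from the others. Hk1 fell by 1.07 ± 0.36 in cortex TRAP (adjusted p = 0.0245) and was higher by 1.77 ± 0.36 in PAP TRAP than in cortex TRAP (adjusted p = 0.00088). Without cortex TRAP replicate 1 these values were -1.79 and 2.49, and the first call was lost without cortex input 2, cortex TRAP 2 or cortex TRAP 3 (adjusted p 0.0527 to 0.0792). Counts of Hk2, another hexokinase, were 17, 34 and 41 for cortex input, 48, 0 and 29 for cortex TRAP, 28, 10 and 29 for synaptoneurosome input and 31, 11 and 12 for PAP TRAP, and none of its changes was called. With a library at 0 counts (which allows up to 3), the ratio of Hk1 to Hk2 per length is fixed there by the 0.5 added. In the other 11 libraries it lay between 2.54 and 44.0, so Hk1 was above Hk2 in each. Gpi1, the isomerase after hexokinase, ranged from 29.2 to 70.1 normalized CPM and was called in none of the comparisons.

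Phosphofructokinase is the committed step, with the muscle (Pfkm), liver (Pfkl) and platelet (Pfkp) subunits encoded apart. Pfkm stood at 42.3, 34.2 and 40.0 normalized CPM in cortex input, 183, 115 and 119 in cortex TRAP, 29.2, 52.6 and 55.2 in synaptoneurosome input and 38.0, 69.1 and 62.7 in PAP TRAP. The cortex TRAP libraries were above the other 9. Pfkm rose by 1.84 ± 0.32 in cortex TRAP (adjusted p = 0.000132) and was lower in PAP TRAP than in cortex TRAP (log2 change -1.30 ± 0.31, adjusted p = 0.00343). Pfkp stood at 65.2, 59.9 and 75.4 in cortex input, 41.6, 32.8 and 35.4 in cortex TRAP, 26.1, 35.8 and 23.5 in synaptoneurosome input and 24.5, 25.3 and 64.3 in PAP TRAP, and its change of -1.23 ± 0.36 in synaptoneurosome input against cortex input was called (adjusted p = 0.0360). That call was lost without any one of the 6 libraries compared (adjusted p 0.0528 to 0.133) and under RLE scaling (adjusted p = 0.0505). Per length, Pfkm exceeded Pfkp in all 12 libraries, by 2.13 to 2.60 times in cortex input, 13.5 to 17.7 in cortex TRAP, 4.48 to 9.38 in synaptoneurosome input and 3.91 to 10.9 in PAP TRAP (exact permutation p = 0.1 for cortex TRAP against cortex input and against PAP TRAP). Pfkl stood at 14.3, 13.5 and 8.07 normalized CPM in cortex input, 11.7, 5.80 and 6.45 in cortex TRAP, 10.6, 3.28 and 20.1 in synaptoneurosome input and 5.44, 3.14 and 8 in PAP TRAP, lower than Pfkm throughout. Pfkl was also lower per length than Pfkp in 11 libraries, with ratios of 0.216 to 0.453, 0.358 to 0.566, 0.192 to 1.71 and 0.251 to 0.449 in the same order, and none of its changes was called. Pfkm is the phosphofructokinase subunit with the highest level per length in every library.

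Pfkfb3 and Pfkfb2 make fructose 2,6-bisphosphate, an activator of phosphofructokinase. Pfkfb3 stood at 7.31, 8.84 and 4.16 normalized CPM in cortex input, 21.2, 28.6 and 22.0 in cortex TRAP, 0.608, 8.96 and 5.98 in synaptoneurosome input and 4.56, 7.52 and 4.97 in PAP TRAP. Cortex TRAP stood above all other libraries, and PAP TRAP overlapped its input. Pfkfb3 rose by 1.82 ± 0.60 in cortex TRAP (adjusted p = 0.0239) and its log2 change in PAP TRAP against cortex TRAP was -2.07 ± 0.61 (adjusted p = 0.0135). The rise was not called without cortex input 1 or 3 or any of the 3 cortex TRAP libraries (adjusted p 0.0531 to 0.145), nor the drop without cortex TRAP 2 or PAP TRAP 1 (adjusted p 0.0557 to 0.0594). Pfkfb2 stood at 8.47, 6.45 and 8.19 normalized CPM in cortex input, 8.38, 14.0 and 11.7 in cortex TRAP, 6.08, 3.58 and 12.9 in synaptoneurosome input and 6.58, 2.23 and 6.29 in PAP TRAP, and it was not called in any comparison. The ratio of Pfkfb3 to Pfkfb2 per length was 2.42, 1.96 and 1.81 in cortex TRAP and 0.828, 1.31 and 0.489 in cortex input (exact permutation p = 0.1), and it spread from 0.117 to 2.34 in synaptoneurosome input and from 0.667 to 3.19 in PAP TRAP.

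Aldoc (ENSMUSG00000017390, chromosome 11, 78322968 to 78327781, plus strand), the aldolase of astrocytes, was the most abundant of these messages per length in the pull-downs. It stood at 159, 133 and 141 normalized CPM in cortex input, 4639.5, 2916 and 3745 in cortex TRAP, 419, 409.7 and 408 in synaptoneurosome input and 803, 1730.3 and 1124 in PAP TRAP. The 4 groups did not overlap each other. Aldoc was 26.1-fold (95% interval 16.9 to 40.2) higher in cortex TRAP than in cortex input (adjusted p = 3.09e-09), 2.96-fold (95% interval 2.02 to 4.32) higher in PAP TRAP than in synaptoneurosome input (adjusted p = 0.00235) and 2.86-fold (95% interval 1.96 to 4.17) higher in synaptoneurosome input than in cortex input (adjusted p = 0.000898). PAP TRAP was -1.63 ± 0.26 on the log2 scale relative to cortex TRAP (adjusted p = 8.1e-05). PAP TRAP replicate 2 held the highest Aldoc level of its group and also the highest summed share of astrocyte markers, 9.19% of nuclear counts, and the lowest of neuron markers, 1.90%.

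Aldoa, the aldolase of muscle and of many other tissues, changed less. It stood at 196, 152 and 175 normalized CPM in cortex input, 354, 180.3 and 198 in cortex TRAP, 116, 112 and 99.8 in synaptoneurosome input and 100.3, 115 and 110.1 in PAP TRAP, and its log2 change of -1.17 ± 0.26 in PAP TRAP against cortex TRAP was the only one called (adjusted p = 0.00206). The ratio of Aldoc to Aldoa per length was 0.723, 0.780 and 0.721 in cortex input, 11.7, 14.4 and 16.9 in cortex TRAP, 3.22, 3.26 and 3.65 in synaptoneurosome input and 7.14, 13.4 and 9.10 in PAP TRAP. It was above 1 in every library but the cortex inputs. Each TRAP group lay above its own input and the synaptoneurosome inputs above the cortex inputs (exact permutation p = 0.1 each), while PAP TRAP and cortex TRAP overlapped (exact permutation p = 0.2).

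The lower steps of the pathway, from triose phosphate isomerase to pyruvate kinase, yields the ATP and pyruvate. Of its 7 genes, only the enolases Eno1 and Eno2 were called in any comparison. Eno1, the enolase of most tissues, stood at 34, 25.3 and 48.3 normalized CPM in cortex input, 131, 98.6 and 128 in cortex TRAP, 13.4, 22.7 and 27.8 in synaptoneurosome input and 26.2, 35.4 and 34.5 in PAP TRAP. It rose by 1.74 ± 0.32 in cortex TRAP (adjusted p = 0.000268), was -1.90 ± 0.32 in PAP TRAP relative to cortex TRAP (adjusted p = 0.000148), and its change of 0.58 ± 0.32 in PAP TRAP over its input was not called. Eno2 (ENSMUSG00000004267, chromosome 6, 124760053 to 124769673, minus strand), known as neuron-specific enolase, stood at 169.8, 164 and 175 in cortex input, 15.1, 25.8 and 24.9 in cortex TRAP, 72.6, 56.4 and 84.9 in synaptoneurosome input and 75.6, 44.0 and 77.9 in PAP TRAP. Cortex TRAP was the lowest group, cortex input the highest, and PAP TRAP overlapped its input. Eno2 fell by 2.95 ± 0.31 in cortex TRAP (adjusted p = 4.19e-07), fell by 1.25 ± 0.29 in synaptoneurosome input against cortex input (adjusted p = 0.00995; 0.0681 without synaptoneurosome input 2) and was higher by 1.59 ± 0.29 in PAP TRAP than in cortex TRAP (adjusted p = 0.000362). The ratio of Eno1 to Eno2 per length was 0.175, 0.135 and 0.242 in cortex input, 7.57, 3.34 and 4.51 in cortex TRAP, 0.163, 0.353 and 0.287 in synaptoneurosome input and 0.304, 0.704 and 0.387 in PAP TRAP. By the length of all exons (5379 bases for Eno1, 4705 for Eno2), Eno1 was above Eno2 in the cortex TRAP libraries alone. By the longest transcript (2027 and 2795 bases), Eno1 was above Eno2 in PAP TRAP 2 as well, where the counts were 428 and 532. The part of shared windows of Eno1 in this ratio was not tested.

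The remaining genes of these steps passed the test in no comparison. Tpi1, the isomerase, ranged from 7.11 to 39.3 normalized CPM, Pkm, pyruvate kinase, from 24.8 to 68.0, Gapdh from 1.22 to 18.8, Pgk1, phosphoglycerate kinase, from 2.72 to 11.1 and Pgam1, phosphoglycerate mutase, from 0.413 to 2.55. Gapdh stood at 1.22, 1.79 and 3.09 in synaptoneurosome input (counts 4, 6 and 16) and at 6.49, 9.67 and 5.91 in PAP TRAP, and its change of 1.82 ± 0.58 was not called by edgeR (adjusted p = 0.0827) but was by DESeq2 (adjusted p = 0.0216). For Pkm in cortex TRAP over cortex input, the 95% interval of the log2 change ran from -0.62 to 0.63, which leaves out a change of Aldoc's size.

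Lactate dehydrogenase is a tetramer of subunits from Ldha, the muscle form, and Ldhb, the heart form. Ldhb stood at 56.6, 55.6 and 50.1 normalized CPM in cortex input, 559, 163 and 164 in cortex TRAP, 75.7, 86.0 and 56.2 in synaptoneurosome input and 55.2, 108 and 80.6 in PAP TRAP. Ldha stood at 75.0, 61.0 and 66.2 normalized CPM in cortex input, 174, 92.3 and 102 in cortex TRAP, 32.2, 51.4 and 61.4 in synaptoneurosome input and 34.8, 52.4 and 51.1 in PAP TRAP. For both genes cortex TRAP was the highest group, with replicate 1 well above its fellows. Ldhb rose by 2.45 ± 0.41 in cortex TRAP over cortex input (adjusted p = 9.21e-05; 1.46 without cortex TRAP replicate 1), and its log2 change in PAP TRAP against cortex TRAP was -1.86 ± 0.40 (adjusted p = 0.00134; -0.88 without that library). Ldha rose by 0.87 ± 0.31 in cortex TRAP (adjusted p = 0.0341), a call lost without any 1 of cortex input 1, 2 or 3 or cortex TRAP 1 or 3 (adjusted p 0.0641 to 0.366; log2 change 0.39 without cortex TRAP replicate 1) and with GC-corrected offsets (adjusted p = 0.0789). In PAP TRAP against cortex TRAP Ldha was -1.41 ± 0.31 (adjusted p = 0.00171). Per length, Ldhb exceeded Ldha in all 12 libraries, by 1.59, 1.92 and 1.60 times in cortex input, 6.76, 3.72 and 3.38 in cortex TRAP, 4.94, 3.53 and 1.93 in synaptoneurosome input and 3.34, 4.33 and 3.33 in PAP TRAP. The cortex inputs had the lowest ratios (exact permutation p = 0.1 against cortex TRAP and against synaptoneurosome input), while PAP TRAP overlapped its input (p = 0.9, exact).

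Slc16a1 (MCT1) is found on endothelium, oligodendrocytes and astrocytes, and Slc16a7 (ENSMUSG00000020102, chromosome 10, 125219270 to 125389465, minus strand) encodes MCT2, the monocarboxylate transporter of neurons. Slc16a7 stood at 33.7, 42.6 and 24.0 normalized CPM in cortex input, 2.21, 3.65 and 0.299 in cortex TRAP, 61.7, 90.8 and 67.0 in synaptoneurosome input and 68.8, 37.7 and 21.1 in PAP TRAP. Its counts in cortex TRAP were 39, 44 and 5. The cortex TRAP libraries lay far below all others. Slc16a7 fell by 4.05 ± 0.60 in cortex TRAP (adjusted p = 2.4e-05; -4.86 without cortex TRAP replicate 2). It was 21.0-fold (95% interval 8.76 to 50.5) higher in PAP TRAP than in cortex TRAP (log2 change 4.39 ± 0.60, adjusted p = 1.38e-05; 5.20 without the same library). Against its own input PAP TRAP changed by -0.78 ± 0.52 and was not called. Slc16a1 stood at 3.66, 4.59 and 1.47 normalized CPM in cortex input, 8.95, 16.7 and 13 in cortex TRAP, 19.4, 3.58 and 18.5 in synaptoneurosome input and 7.11, 1.24 and 9.09 in PAP TRAP. Cortex TRAP lay above cortex input, and both groups of the fraction spread widely. Its rise of 1.99 ± 0.71 in cortex TRAP was called (adjusted p = 0.0366), but not without any 1 of cortex input 1, 2 or 3 or cortex TRAP 2 or 3 (adjusted p 0.0528 to 0.185). The ratio of Slc16a1 to Slc16a7 per length was 10.7, 12.1 and 106 in cortex TRAP, and between 0.0908 and 1.16 in the other 9 libraries. Slc16a3 (MCT4) had at most 8 counts in a library.

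Each gene that was higher in PAP TRAP than in cortex TRAP (Slc2a3, Hk1, Eno2 and Slc16a7) was lower in cortex TRAP than in its input, and none of these was called in PAP TRAP against synaptoneurosome input. The contrasts share the cortex TRAP libraries. Hk1 differed from the other 3 genes in that PAP TRAP lay above all 6 input libraries, with a change of 0.76 ± 0.36 over synaptoneurosome input that was not called (adjusted p = 0.239). Without Camk2a, the neuron markers summed to 0.381 to 0.561% of nuclear counts in PAP TRAP, 1.02 to 1.43% in its input and 0.187 to 0.295% in cortex TRAP. Oligodendrocyte and microglia markers were also higher in PAP TRAP than in cortex TRAP (median log2 changes 2.84 and 3.06). The part of RNA from neurons or other cells in the higher levels of these 4 genes was not tested.

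**Figure D4:**
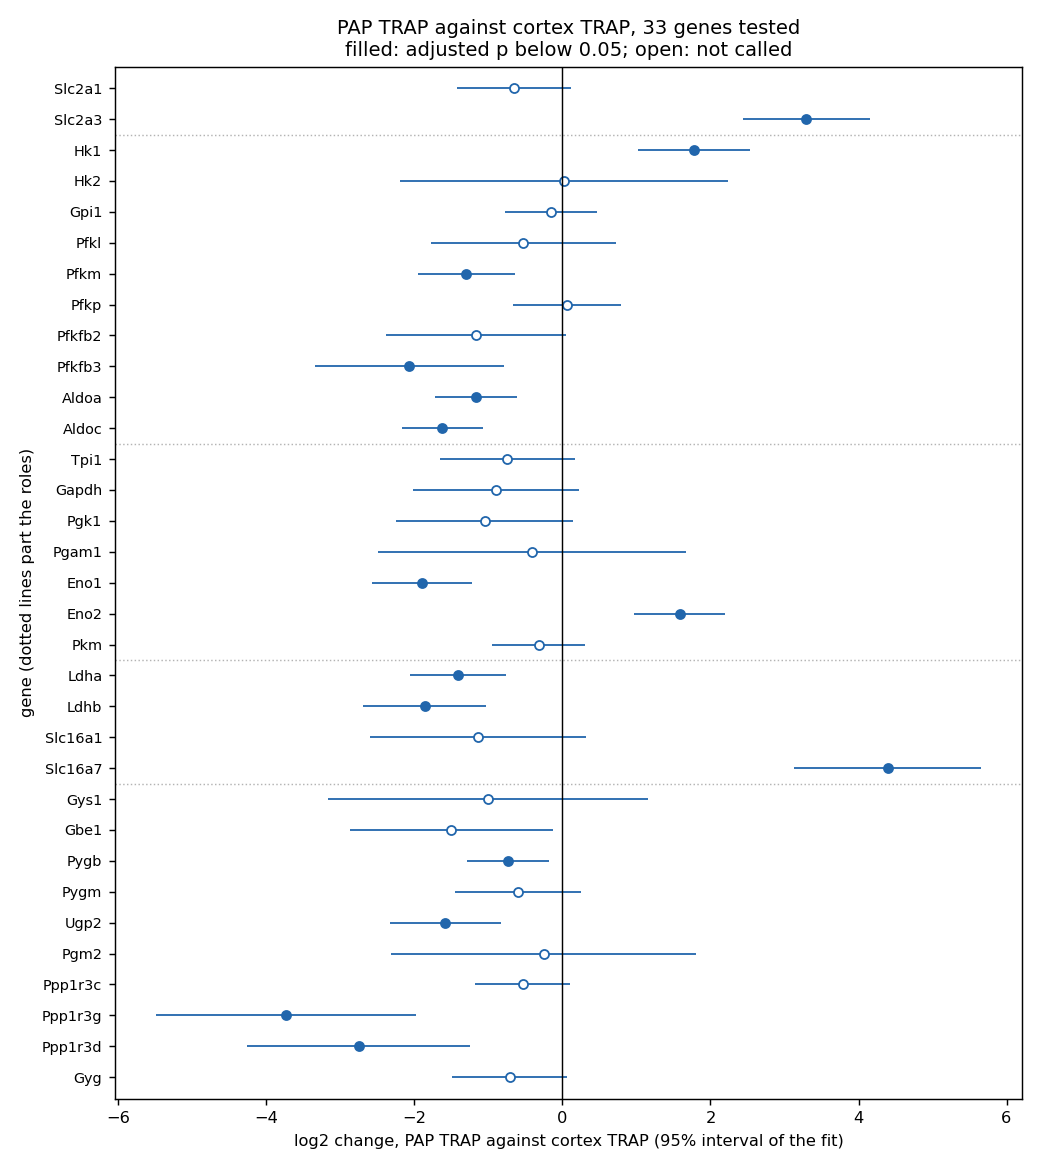
Points give the fitted log2 change of PAP TRAP against cortex TRAP for the 33 genes tested, with 95% intervals (n = 3 per group), and filled points have an adjusted p below 0.05. Filled points right of 0 are Slc2a3, Hk1, Eno2 and Slc16a7, and 11 filled points lie left of 0, Ppp1r3g farthest at -3.73.

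Glycogen genes gave the most called rises in the whole-tissue pull-down, with 7 of 10 higher and 0 lower (15.9% and 19.5% of all genes; median log2 change 3.09 against 0.05 over all genes). In PAP TRAP over its input 2 of 10 were higher and 0 lower (3.0% and 1.53% of all genes; median 1.05 against 0.06). In PAP TRAP against cortex TRAP 0 were higher and 4 lower (19.3% and 14.6% of all genes; median -0.87 against -0.28). The 10 genes held 0.0225 to 0.0248% of nuclear counts in cortex input, 0.135 to 0.165% in cortex TRAP, 0.0256 to 0.0454% in synaptoneurosome input and 0.0545 to 0.0885% in PAP TRAP. This list too was chosen with earlier results of these data known, so its counts of calls are not independent of the choice.

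Glycogen phosphorylase, which releases glucose 1-phosphate from glycogen, has a brain form, Pygb (ENSMUSG00000033059, chromosome 2, 150786735 to 150831758, plus strand), and a muscle form, Pygm (ENSMUSG00000032648, chromosome 19, 6384399 to 6398459, plus strand), and both are present in astrocytes. Pygb stood at 17.1, 17.9 and 22.5 normalized CPM in cortex input, 228, 186 and 153 in cortex TRAP, 58.0, 39.7 and 43.8 in synaptoneurosome input and 87.8, 136 and 117 in PAP TRAP. Pygm stood at 3.27, 2.53 and 1.77 in cortex input, 42.1, 23.1 and 57.5 in cortex TRAP, 8.81, 8.66 and 8.69 in synaptoneurosome input and 15.8, 37.0 and 28.2 in PAP TRAP. Both rose from each input to its pull-down and from cortex input to synaptoneurosome input, with no overlap in any of the 3. In cortex TRAP over cortex input the rise was 3.30 ± 0.29 for Pygb (adjusted p = 5.04e-08) and 4.01 ± 0.47 for Pygm (adjusted p = 1.44e-06). In PAP TRAP over synaptoneurosome input it was 1.27 ± 0.27 (adjusted p = 0.0120) and 1.63 ± 0.43 (adjusted p = 0.0374), that is 2.41-fold (95% interval 1.62 to 3.57) and 3.10-fold (95% interval 1.65 to 5.80). Synaptoneurosome input was above cortex input by 1.30 ± 0.27 for Pygb (adjusted p = 0.00452) and 1.78 ± 0.45 for Pygm (adjusted p = 0.0158). Pygb exceeded Pygm per length in all 12 libraries, by 3.48 to 8.36 times in cortex input, 1.78 to 5.38 in cortex TRAP, 3.03 to 4.34 in synaptoneurosome input and 2.45 to 3.71 in PAP TRAP, and no exact permutation p for this ratio was under 0.2. Both forms thus went up together from input to pull-down.

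The calls of the phosphorylases over synaptoneurosome input rest on few libraries. That of Pygb was lost without synaptoneurosome input 2 (log2 change 1.16, adjusted p = 0.0616). That of Pygm was lost without any 1 of cortex input 1 or 2, synaptoneurosome input 1, 2 or 3 or PAP TRAP 2 or 3 (adjusted p 0.0515 to 0.136), in the fit of the compared groups alone (0.0530) and with GC-corrected offsets (0.0651). The log2 change of Pygb in PAP TRAP against cortex TRAP was -0.73 ± 0.27 (adjusted p = 0.0394). It was not called under RLE scaling, without a filter on low counts, in the compared groups alone, without mitochondrial genes, with GC-corrected offsets, or without cortex input 1, 2 or 3, cortex TRAP 1, 2 or 3, synaptoneurosome input 2 or PAP TRAP 1 or 3 (adjusted p 0.0515 to 0.264). The call of Pygm in synaptoneurosome input over cortex input was lost without cortex input 2 or 3 (adjusted p 0.0667 to 0.0977).

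Ugp2 makes UDP-glucose, the donor for glycogen synthesis. It stood at 23.3, 27.7 and 17.2 normalized CPM in cortex input, 181, 204 and 128 in cortex TRAP, 35.2, 34.9 and 14.3 in synaptoneurosome input and 55.7, 79.3 and 36.1 in PAP TRAP. Ugp2 rose by 2.91 ± 0.38 in cortex TRAP (adjusted p = 5.28e-06). In PAP TRAP its log2 change was 1.03 ± 0.36 over input, not called (adjusted p = 0.114), and -1.58 ± 0.36 against cortex TRAP (adjusted p = 0.00211). Gyg, glycogenin, the primer of glycogen, stood at 16.9, 9.57 and 13.5 normalized CPM in cortex input, 38.0, 41.4 and 27.5 in cortex TRAP, 11.8, 11.9 and 6.18 in synaptoneurosome input and 18.3, 24.5 and 22.2 in PAP TRAP. Gyg rose by 1.42 ± 0.37 in cortex TRAP (adjusted p = 0.00576), and each PAP TRAP library lay above each of its inputs, with a change of 1.13 ± 0.39 that was not called (adjusted p = 0.105).

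Ppp1r3c, Ppp1r3g and Ppp1r3d encode subunits that bring protein phosphatase 1 to glycogen, where it favours synthesis. Ppp1r3c stood at 11.5, 14.5 and 20.8 normalized CPM in cortex input, 165, 152 and 133 in cortex TRAP, 44.4, 68.4 and 34.2 in synaptoneurosome input and 76.9, 135 and 98.6 in PAP TRAP. It rose by 3.26 ± 0.34 in cortex TRAP (adjusted p = 3.43e-07) and by 1.65 ± 0.32 in synaptoneurosome input over cortex input (adjusted p = 0.00242). In PAP TRAP over its input the groups did not overlap and the change was 1.08 ± 0.31, with an adjusted p of 0.0543 that misses the threshold. It passed by DESeq2, without a filter on low counts, without mitochondrial genes, with GC-corrected offsets, with the replicate block, and without cortex TRAP 1, synaptoneurosome input 2 or PAP TRAP 1. In PAP TRAP against cortex TRAP the change of Ppp1r3c was -0.54 ± 0.31 (95% interval -1.18 to 0.11) and was not called.

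Ppp1r3g (ENSMUSG00000050423, chromosome 13, 35958839 to 35970388, plus strand) had the largest fitted rise of the 33 genes in cortex TRAP and the largest fitted drop from cortex TRAP to PAP TRAP. Its counts were 9, 11 and 7 in cortex input, 441, 359 and 537 in cortex TRAP, 6, 2 and 1 in synaptoneurosome input and 14, 62 and 2 in PAP TRAP. Scaled, these were 0.498, 0.731 and 0.428 normalized CPM in cortex input, 25.0, 29.8 and 32.1 in cortex TRAP, 1.82, 0.597 and 0.193 in synaptoneurosome input and 1.23, 5.12 and 0.155 in PAP TRAP. It was high in all cortex TRAP libraries and near the floor of 3 counts in several libraries of the fraction. It rose by 5.69 ± 0.93 in cortex TRAP (adjusted p = 7.88e-05), and PAP TRAP was -3.73 ± 0.84 relative to cortex TRAP (adjusted p = 0.00202; -5.38 without PAP TRAP replicate 2, which held 62 of the 78 counts of that group). Ppp1r3d had counts of 19, 13 and 10 in cortex input, 231, 116 and 142 in cortex TRAP, 2, 4 and 5 in synaptoneurosome input and 14, 20 and 22 in PAP TRAP. It rose by 3.61 ± 0.74 in cortex TRAP (adjusted p = 0.000778), and PAP TRAP was -2.76 ± 0.72 relative to cortex TRAP (adjusted p = 0.00605; 0.0505 without cortex TRAP replicate 1). The fitted change from cortex TRAP to PAP TRAP had a 95% interval of -1.18 to 0.11 for Ppp1r3c, -5.49 to -1.98 for Ppp1r3g and -4.26 to -1.25 for Ppp1r3d. Whether the genes differ from each other was not tested.

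**Figure D5:**
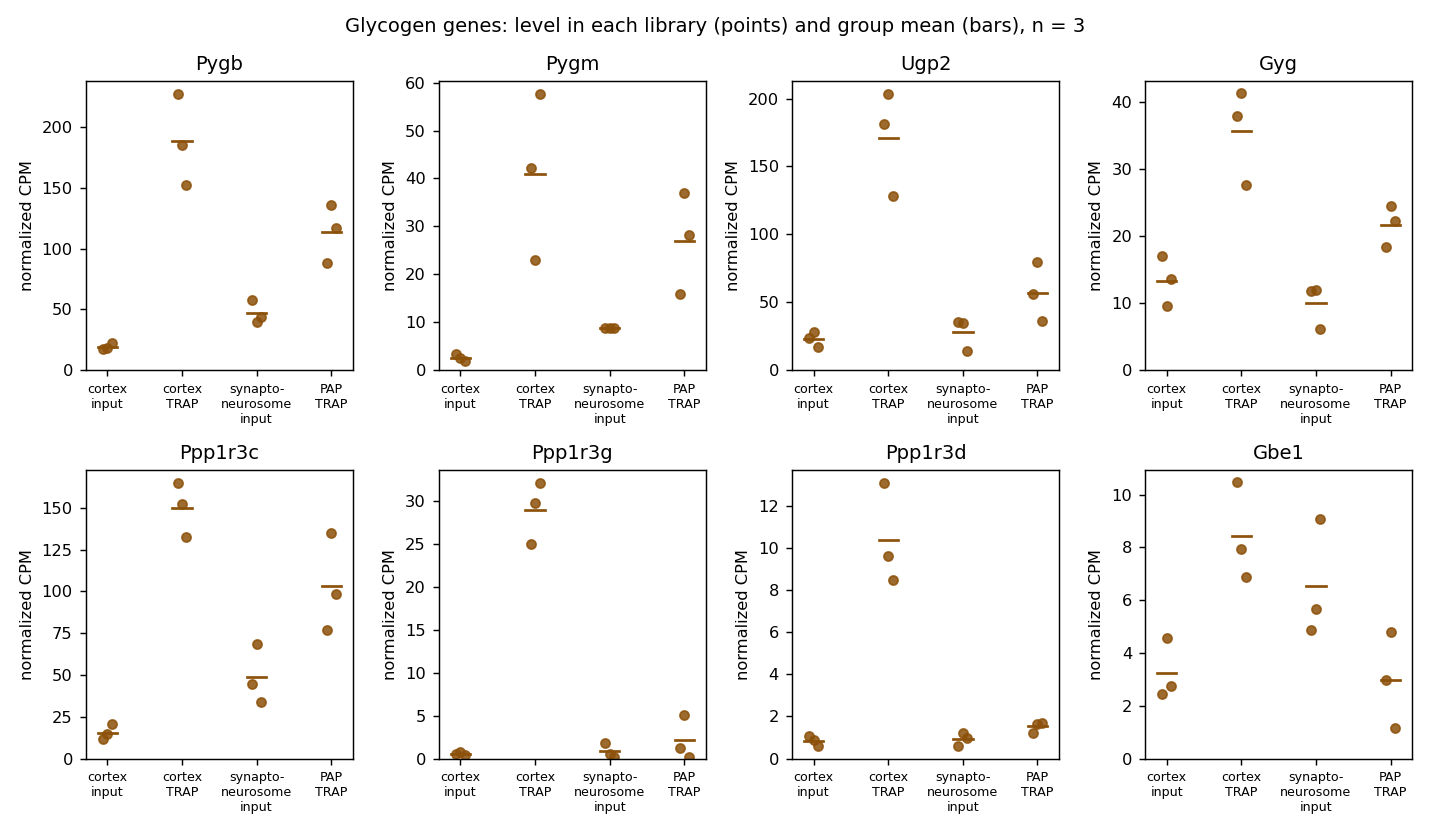
Panels plot the normalized CPM of glycogen genes in each of the 12 libraries, with the mean of 3 libraries as a bar and axes that start at 0. Pygb, Pygm, Ugp2, Gyg and Ppp1r3c stand above their inputs in both pull-downs, as does Ppp1r3d, narrowly in PAP TRAP. Ppp1r3g and Ppp1r3d reach 8.49 or more only in cortex TRAP.

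Gys1, glycogen synthase, Gbe1, the branching enzyme, and Pgm2 (the gene ENSMUSG00000029171, a phosphoglucomutase) were called in no comparison. Gys1 ranged from 0.233 to 21.5 normalized CPM, with 4, 72 and 3 counts in synaptoneurosome input and 82, 99 and 3 in PAP TRAP, so its level in the fraction was not determined. Gbe1 stood at 2.44, 4.59 and 2.75 in cortex input, 10.5, 7.96 and 6.87 in cortex TRAP, 4.86, 5.67 and 9.07 in synaptoneurosome input and 2.98, 4.79 and 1.17 in PAP TRAP, the highest level being in cortex TRAP. Pgm2 ranged from 0.299 to 8.35. The symbols Pgm1 and Pgm2 have been exchanged in mouse nomenclature, so that which gene is meant by Pgm2 depends on the annotation. The other gene, ENSMUSG00000025791, is Pgm1 here, rose by 2.92 ± 0.58 in cortex TRAP (adjusted p = 0.000578) and was called lower in PAP TRAP than in cortex TRAP.

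By level per length of all exons, the order of these genes differed between the groups. In cortex TRAP the highest mean levels were those of Aldoc (1154 normalized CPM per kb), Ldhb (188), Aldoa (83.8), Ugp2 (55.7) and Ppp1r3c (55.0). In PAP TRAP they were those of Aldoc (374), Ldhb (51.7), Ppp1r3c (37.9), Aldoa (37.3) and Pygb (23.6). In cortex input they were those of Aldoa (59.8), Aldoc (44.2), Eno2 (36.0), Ldhb (34.5) and Ldha (20.4). In synaptoneurosome input they were those of Aldoc (126), Ldhb (46.2), Aldoa (37.5), Slc2a3 (19.3) and Ppp1r3c (18.0). Aldoc and Ldhb were thus the first 2 by this length in all groups but cortex input. Aldoc was above Ldhb in each library of these groups. The length was 2911 bases for Aldoa and 1570 for Ldhb, against 1549 and 1304 for the longest transcript. By the longest transcript, the mean of Aldoa was above that of Ldhb in PAP TRAP and synaptoneurosome input. The order below Aldoc thus depends on the length used. Aldoa and Ldhb share windows with copies, as given above.

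Other genes around these steps were taken as 71 genes in 5 lists, of which 58 passed the filter. In cortex TRAP over cortex input 14 rose and 7 fell (15.9% and 19.5% of all genes), with a median log2 change of 0.51 against 0.05 over all genes. Several of the single lists, such as 2 rises in 14 genes, were near the share of all genes. Pdk2, a kinase that switches off pyruvate dehydrogenase, rose by 2.91 ± 0.32 (adjusted p = 7.29e-07) and Phka1, a regulatory subunit of phosphorylase kinase, by 2.87 ± 0.38 (adjusted p = 7.82e-06). Slc2a13, a proton-coupled myo-inositol transporter, was -2.51 ± 0.25 and Got1, the cytosolic aminotransferase of the malate-aspartate shuttle, -2.53 ± 0.32 (adjusted p = 2.85e-07 and 3.82e-06). By list, 2 of 8 tested pentose phosphate genes rose and 0 fell, 3 of 13 genes of pyruvate entry into mitochondria rose and 1 fell, 2 of 9 genes of the NADH shuttles rose and 3 fell, 5 of 14 further glycogen genes rose and 2 fell, and 2 of 14 further glycolytic, glucose and monocarboxylate genes rose and 1 fell.

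In PAP TRAP over synaptoneurosome input, 1 of the 58 rose and 0 fell by edgeR (3.0% and 1.53% of all genes; 13 of the 58 had an unadjusted p under 0.05). The gene was Mdh2, the mitochondrial malate dehydrogenase, at 1.07 ± 0.29 (adjusted p = 0.0386). Against cortex TRAP, PAP TRAP had 5 higher and 13 lower, where 19.3% and 14.6% of all genes were. Slc2a13 was higher by 2.97 ± 0.26 and Gaa, the lysosomal glucosidase that degrades glycogen, by 1.96 ± 0.32 (adjusted p = 4.01e-08 and 9.59e-05). Pdk2 changed by -2.24 ± 0.31 and Pgm1, a phosphoglucomutase, by -3.32 ± 0.60 (adjusted p = 1.51e-05 and 0.000272). By list, 0 of 8 pentose phosphate genes were higher and 3 lower, 0 of 13 genes of pyruvate entry were higher and 5 lower, 2 of 9 NADH shuttle genes were higher and 3 lower, 2 of 14 further glycogen genes were higher and 1 lower and 1 of 14 further glycolytic, glucose and monocarboxylate genes were higher and 1 lower.

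The counts in synaptoneurosome input against cortex input were near the shares over all genes (7.26% higher and 2.07% lower): 5 of the 58 were higher, among them Phka1 (2.82 ± 0.39, adjusted p = 9.72e-05) and Slc2a13 (1.23 ± 0.24, adjusted p = 0.00261), and 2 lower, Mdh2 (-1.07 ± 0.29, adjusted p = 0.0232) and Gsk3b, a kinase that inhibits glycogen synthase (-0.82 ± 0.23, adjusted p = 0.0315). The enrichment over input was greater in the fraction than in whole tissue for 4 of the 58 (12.9% of all genes), among them Slc2a13 (1.73 ± 0.34) and Got1 (2.08 ± 0.43), and smaller for 7 (7.32%), among them Pdk2 (-2.11 ± 0.43) and Pgm1 (-3.98 ± 0.82; adjusted p of the 4 genes 0.00115, 0.00175, 0.00150 and 0.00166). By list, 0 of 8 pentose phosphate genes were higher and 0 lower, 0 of 13 genes of pyruvate entry were higher and 0 lower, 1 of 9 NADH shuttle genes were higher and 1 lower, 3 of 14 further glycogen genes were higher and 1 lower and 1 of 14 further glycolytic, glucose and monocarboxylate genes were higher and 0 lower in synaptoneurosome input against cortex input. For the enrichments, 0 of 8 pentose phosphate genes had a greater and 0 a smaller one, 1 of 13 genes of pyruvate entry had a greater and 2 a smaller one, 1 of 9 NADH shuttle genes had a greater and 1 a smaller one, 1 of 14 further glycogen genes had a greater and 3 a smaller one and 1 of 14 further glycolytic, glucose and monocarboxylate genes had a greater and 1 a smaller one.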

How the data were processed

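The authors deposited whole-number counts of reads per gene for each library, with HTSeq's summary rows (20.3% to 55.5% of all counts), which name no gene and entered neither library sizes nor tests. HTSeq, STAR, Bowtie2 and Trimmomatic 0.32 are named, without their roles, per the submitters' processing notes. Antisense and overlapping genes are uncertain, since the sources used here give no build, annotation or strand setting. Per the labels' protocols, cDNA from 2 ng of RNA was amplified by SPIA, a linear method; no molecular identifiers are mentioned, so reads are not taken as independent molecules.

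GENCODE M21 (GRCm38) gave symbols, lengths and positions for 40254 of the 41388 identifiers. Genes kept by filterByExpr (minimum count 10, minimum total 15) were fitted with edgeR 4.0.16 (R 4.3.3) by the quasi-likelihood F test with TMM scaling (factors 0.191 to 2.46), 12 libraries and 1 mean per group. Benjamini-Hochberg adjustment ran over all 13364 genes tested, with calls at 0.05, and intervals (95%) come from the SE. Ratios used counts plus 0.5 per length of all exons, with exact two-sided permutation tests, for 10 pairs and 4 comparisons. The fit was tested on simulated data.

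The genes and lists were chosen with earlier results of these data known. Values per library are given for genes called in any comparison or in a pair. Of pathway genes, those named have the smallest p in each direction (at most 2). Alternatives were RLE scaling, no filter, DESeq2 1.42.0, the compared groups alone, a replicate block, no mitochondrial genes, a minimum fold of 1.5, each library left out, other lengths or a pseudocount of 1 in ratios, and, added after seeing the data, offsets corrected for GC content.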

Additional observations from a re-analysis of the deposited data

Results flagged for a closer look

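The enrichment over input differed between the fraction (PAP TRAP over synaptoneurosome input) and whole tissue (cortex TRAP over cortex input) for 14 of the 33 genes tested (4 greater and 10 smaller in the fraction, against 12.9% and 7.32% of all genes), by the test of the difference itself in the edgeR fit. Values are the log2 enrichment in the fraction minus that in whole tissue. It was greater in the fraction for Slc2a3 (2.37 ± 0.54, adjusted p = 0.00374), Hk1 (1.83 ± 0.50, 0.0138), Eno2 (2.83 ± 0.41, 6.94e-05) and Slc16a7 (3.26 ± 0.76, 0.00446). These are the genes that were low in cortex TRAP. The enrichment was also greater in the fraction for 9 of 10 neuron markers (median difference 3.04) and 5 of 8 oligodendrocyte markers (2.28). It was greater for 1 of 4 oligodendrocyte precursor markers (1.58) and 1 of 9 microglia markers (0.32), and 0 of any of these lists had a smaller one. The part of RNA from these cell types in the 4 genes was not tested. Without 1 cortex TRAP library the values were 3.05 for Slc2a3 (replicate 3), 2.56 for Hk1 (replicate 1) and 4.08 for Slc16a7 (replicate 2).

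Among genes of uptake, glycolysis and lactate, the enrichment was smaller in the fraction for Slc2a1 (-1.91 ± 0.52, adjusted p = 0.0133), Pfkm (-1.53 ± 0.44, 0.0176), Aldoc (-3.14 ± 0.37, 7e-06), Ldhb (-2.28 ± 0.56, 0.00596; -1.29 without cortex TRAP replicate 1) and Slc16a1 (-3.24 ± 1.00, 0.0274). Among glycogen genes it was smaller for Pygb (-2.03 ± 0.38, 0.000753), Pygm (-2.38 ± 0.60, 0.00795), Ugp2 (-1.88 ± 0.51, 0.0117), Ppp1r3c (-2.18 ± 0.44, 0.00145) and Ppp1r3g (-4.29 ± 1.30, 0.0248; -5.93 without PAP TRAP replicate 2). The synaptoneurosome inputs already held 3.94 to 4.78% of nuclear counts in astrocyte markers, against 0.746 to 0.845% in the cortex inputs. Without Slc1a2 these shares were 0.343 to 0.497% and 0.131 to 0.146%, and the median astrocyte marker was higher by 1.73 on the log2 scale. The part of this gap in the smaller enrichments was not tested.

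Single libraries ended some of these calls: Slc2a1 without cortex input 3 or cortex TRAP 3 (adjusted p 0.0592 to 0.0631), Pfkm without cortex input 1, 2 or 3, cortex TRAP 1, synaptoneurosome input 2 or PAP TRAP 1 (0.0517 to 0.0800), Slc16a1 without cortex input 1 or 3, cortex TRAP 2 or synaptoneurosome input 1 or 3 (0.0596 to 0.0906), Ugp2 without cortex input 3 (0.0628), and Ppp1r3g without cortex input 1 or 3, synaptoneurosome input 1 (log2 difference -3.14) or PAP TRAP 1 (0.0580 to 0.219).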

How the results depend on the processing

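Of 58 called changes of single genes, 0 reversed under the alternatives run (20, of which the fit of the compared groups alone cannot be made for the difference between enrichments), 40 stayed called under each alternative run for them, and 18 lost the call under at least 1. In PAP TRAP over synaptoneurosome input, 5 genes were higher without a filter on low counts and by DESeq2, and 1 (Aldoc) with a minimum fold of 1.5, against 3 in the main test. In synaptoneurosome input against cortex input, 8 were higher in the compared groups alone and 3 with a minimum fold, against 5, and 1 was lower under RLE scaling and 0 with a minimum fold, against 2. Leaving out each library in turn gave 2 to 4 higher in PAP TRAP over its input, 3 to 6 higher (3 without cortex input 2 or 3) and 0 to 2 lower (0 without synaptoneurosome input 2, and 1 without cortex input 1, 2 or 3 or synaptoneurosome input 1 or 3) in synaptoneurosome input against cortex input, and 5 (without cortex input 3) to 11 with a smaller enrichment in the fraction, against 10. The cause of these shifts was not tested.

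With the replicate block, 5 genes were higher in PAP TRAP over its input against 3, and no other count of these genes moved by over 1.5 times. Same-numbered libraries had correlations of their deviations from the group means of 0.0115 to 0.0639 across genes, and differently numbered ones of -0.0591 to 0.0246. In every comparison of 2 groups, each library of the first-named group correlated most with the library of its own number. The labels do not say that the numbers mark shared animals, so the main fit did not pair libraries. Whether they are paired was not tested.

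Over all genes, PAP TRAP against synaptoneurosome input had 605 calls in the main test, 1229 by DESeq2, 137 with a minimum fold and 292 to 740 with a library left out, and without mitochondrial genes 573 were higher and 151 lower, against 401 and 204. Synaptoneurosome input against cortex input had 1246 calls, 2016 by DESeq2, 2251 in the compared groups alone, 547 with a minimum fold and 608 to 1393 with a library left out. Scaling moved the median log2 change of all genes in PAP TRAP against cortex TRAP from -0.28 to -0.11 without mitochondrial genes. Nuclear counts were lowest in the synaptoneurosome inputs, and the part of depth in the number of calls there was not tested. Of 200 alternatives for the mean isoform ratios, 15 moved by more than the spread between replicates.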
